A study of Mus musculus with 6 samples.

Results

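Integrins, selectins and their ligands are the surface molecules by which blood cells hold on to matrix, to vessel walls and to each other, and 32 of their genes were followed here in sorted mouse bone marrow progenitors with and without active Notch1. The genes were taken from a fixed list of symbols: 17 integrin alpha subunits, 7 beta subunits, the selectins Selp and Sele, the selectin ligand Selplg, and the ligands Icam1, Icam2, Icam4, Madcam1 and Cd47. Probe sets were present for 30 of the 32, among 18193 genes in all, while Itga11 and Itgad were not analysed here. Each gene was read on the probe set (a group of short probes for a transcript) with the highest mean over the 6 arrays.

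The cells were lineage-negative, cKit-positive and Sca1-positive marrow cells (LSK), which hold hematopoietic stem cells and early progenitors. The 3 WT mice carried Mx1-cre, a Cre recombinase behind an interferon-responsive promoter that is not restricted to blood cells, and consisted of 2 males and 1 female. The 3 N1IC mice, all female, carried Mx1-cre with the lox-stop-lox N1-IC allele, in which Cre releases the intracellular, active part of Notch1. Animals of both groups received 3 polyIC injections of 20 mcg per g of body weight from the age of 21 days, and were 5 weeks old at the sort, 2 weeks after the last injection. The labels' treatment text names Ncstn flox/flox animals instead, and the groups follow the genotype labels. Median intensity ranged over the arrays from 6.48 to 6.53 on the log2 scale used throughout. WT replicate 1 lay at least 0.5 below both other WT arrays in 5.20% of all genes and in 7 of the 30, and the members' results that turn on it are given with and without it. Each array came from 1 mouse. The titles of WT replicates 1 and 2 carry a b after the number, and those of the other arrays do not. Of the progenitor genes Kit, Cd34, Sox4, Myb, Cd48 and Ptprc, 5 did not pass the test between the groups, while the gene of Sca1 was not analysed here. Cd34 fell by 0.62 on the log2 scale. Its call was lost when WT replicate 3 was left out, with a block on the replicate number, and at an adjusted p under 0.01 by limma.

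An integrin is a pair of an alpha and a beta chain, and the pair decides the ligand: chains that join Itgb1 mostly bind matrix, those that join Itgb2 bind Icam proteins on other cells, and those that join Itgb7 guide lymphocytes to mucosal tissue. Selectins bind sugar-bearing proteins and slow cells in flowing blood. In marrow, alpha 4 integrins hold stem and progenitor cells in their niche, and Selplg supports the entry of progenitors into the thymus. Because whole sorted fractions were measured, fewer cells of a type and less RNA per cell cannot be told apart.

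The group showed no common direction. By limma, with p adjusted over all 18193 genes by the Benjamini-Hochberg method and a threshold of 0.05, 4 of the 30 genes were higher in N1IC (Itga9, Itgb4, Itgb6 and Itga10) and 3 were lower (Selp, Icam4 and Itga6). These are 13.3% and 10% of the genes, where 3.47% of all genes were called higher and 8.31% lower. Together 7 of 30 were called, 23.3%, against 11.8% of all genes. The median log2 fold change, N1IC minus WT, was 0.02 over the 30 genes and -0.01 over all genes. In 13 of the 30 genes the arrays of the groups did not overlap, 43.3% against 32.8% of all genes. A difference of at least 2-fold was seen in 6 genes, Itga8, Itga9, Itga1, Itgb5, Selp and Itgb2, of which Itga9 and Selp passed the test. These 6 are 20% of the 30, against 8.39% of all genes. At an adjusted p under 0.01 limma called none of the 30, and 209 higher and 536 lower among all 18193 genes. An unadjusted p under 0.05 by limma was seen in 13 of the 30, against 4833 of all 18193 genes. Each of the 7 calls was lost in at least 3 of the 6 fits that leave out 1 array. In those fits 1 to 2 genes were called higher and 0 to 5 lower. The 5 lower genes were found without WT replicate 1. Without WT replicate 3, or without N1IC replicate 1, limma called none lower, and 5 were lower at an unadjusted p under 0.05 in both cases.

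**Figure D1:**
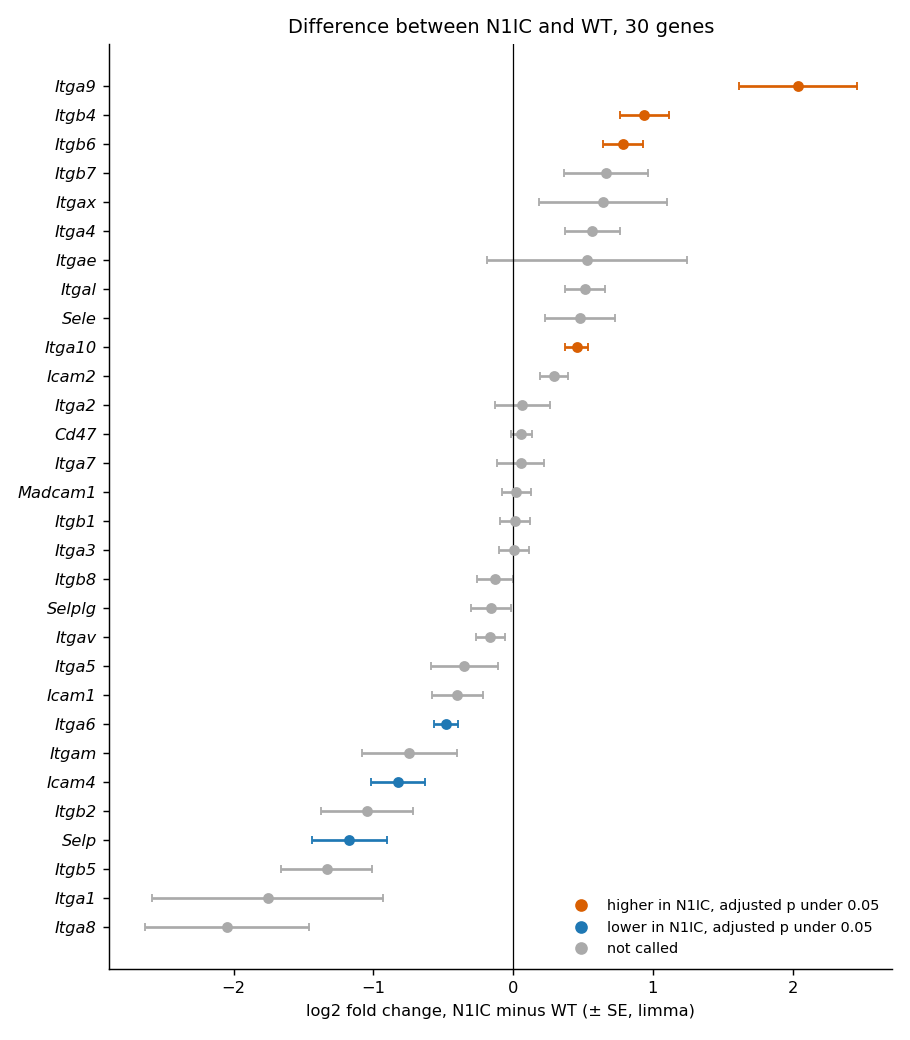
Log2 fold change, N1IC minus WT, with its standard error from limma on the horizontal axis, for the 30 measured genes sorted by size; colour marks genes past the adjusted threshold of 0.05. Itga9 stands at 2.04 at one end and Itga8, not called, at -2.05 at the other, and the median size of the difference is 0.50 over the 30 genes against 0.16 over all genes.

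Itga9 and Itga4 encode the alpha chains of a small subfamily within the integrins, and both had positive log2 fold changes on all of their probe sets, so the sequences before their annotated starts are shown, together with that of Selp as the member that fell most among those called. The windows hold the 250 bases before the start, 5′ to 3′ on the gene's strand, from RefSeq on build GRCm38.p6. They are chr9:118711442-118711691 for Itga9, chr2:79255176-79255425 for Itga4 and chr1:164115014-164115263 for Selp, all on the + strand. Capitals mark a core of the ETS family, AGGAAG on either strand, and none of the 3 windows holds the core bound by the Notch partner RBPJ, TGGGAA on either strand.
Itga9: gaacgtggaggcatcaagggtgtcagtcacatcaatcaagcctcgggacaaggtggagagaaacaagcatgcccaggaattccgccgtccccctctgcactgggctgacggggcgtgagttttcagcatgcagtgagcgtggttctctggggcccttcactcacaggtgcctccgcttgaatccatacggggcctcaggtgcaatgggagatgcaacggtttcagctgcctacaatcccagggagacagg
Itga4: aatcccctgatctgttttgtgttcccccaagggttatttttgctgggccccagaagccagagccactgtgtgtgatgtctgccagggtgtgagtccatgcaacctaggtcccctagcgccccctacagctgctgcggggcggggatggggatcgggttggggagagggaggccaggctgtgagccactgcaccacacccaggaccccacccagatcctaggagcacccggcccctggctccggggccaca
Selp: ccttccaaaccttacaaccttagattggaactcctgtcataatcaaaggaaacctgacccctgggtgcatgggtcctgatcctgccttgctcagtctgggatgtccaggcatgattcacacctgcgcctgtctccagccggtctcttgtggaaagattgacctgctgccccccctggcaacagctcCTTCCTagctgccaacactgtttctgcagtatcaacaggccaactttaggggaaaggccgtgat
Base composition differed, with 58.4% G or C and 10 CG pairs for Itga9, 64% and 6 for Itga4, and 53.6% and 3 for Selp, beside medians of 52.4% and 6 over all promoter windows. Of the 22 measured members with a promoter entry, 2 held TGGGAA (Madcam1 and Sele), 9.09%, against 24.1% of all genes with an entry, and 10 held AGGAAG, 45.5% against 32.3%. These are matches of letters and say nothing of binding. Several members are also neighbours in the order of protein-coding genes: Itga2 and Itga1 on chromosome 13, Itgam, Itgax and Itgad on chromosome 7, and Icam1 and Icam4 on chromosome 9 adjoin with no gene between, and Sele and Selp on chromosome 1 have 1 between.

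Among the alpha chains that bind fibronectin and other matrix or counter-receptors, Itga9 rose 4.11-fold. Its product joins the beta 1 chain and binds tenascin C and osteopontin. Itga9 stood at 7.46, 5.87 and 6.84 on WT replicates 1, 2 and 3 and at 8.34, 9.04 and 8.90 on the N1IC arrays. Every N1IC array lay above every WT array, and WT replicate 2, the WT female, was the lowest. The log2 fold change was 2.04 ± 0.42 (SE, n = 3 per group), with an adjusted p of 0.0318 by limma. The name of this probe set carries the platform's suffix for probes shared between transcripts. The other Itga9 probe sets do not carry it. They stood at 1.03, which passed when p was adjusted over single probe sets (0.0215 by limma), and at 1.95, which did not. The call of Itga9 was kept with sex as a covariate, a fit that sets the N1IC arrays against the 1 WT female. It was lost without WT replicate 3 or any 1 of the N1IC arrays, with adjusted p between 0.065 and 0.101 by limma.

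Itga4, the alpha chain that anchors progenitors to stroma and fibronectin, did not pass on its brightest probe set. It stood at 12.63, 12.77 and 12.06 in WT and at 12.92, 13.14 and 13.10 in N1IC, without overlap and with a log2 fold change of 0.57 ± 0.20 (SE). The 4 dimmer probe sets gave larger differences, of 1.23, 2.19, 1.26 and 1.89. The probe set with 2.19 stood at 9.69, 9.88 and 9.27 in WT and at 11.94, 11.82 and 11.65 in N1IC. It alone among the 5 passed when p was adjusted over single probe sets, at 0.00302 by limma. With the mean of the 5 probe sets as the value of the gene, Itga4 passed, at 1.43 and an adjusted p of 0.00458 by limma. The size of the Itga4 difference thus depended on the probe set, while its direction did not.

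Itga8, whose product binds nephronectin, had the widest difference in the other direction and did not pass. It stood at 3.51, 5.27 and 5.88 in WT and at 2.73, 3.05 and 2.74 in N1IC, all under the median of the probe sets. Its log2 fold change was -2.05 ± 0.59 (SE) with an adjusted p of 0.0818 by limma. Without WT replicate 1, the lowest of the WT arrays, the value was -2.73 with an adjusted p of 0.00353. Without any 1 of the other arrays Itga8 did not pass, at 0.16 to 0.196 by limma. A dimmer Itga8 probe set differed by -0.05. Itga5, the fibronectin receptor chain, and Itgav, the chain that joins several beta subunits, stood at -0.35 ± 0.24 and -0.16 ± 0.10 (SE), and their groups overlapped.

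**Figure D2:**
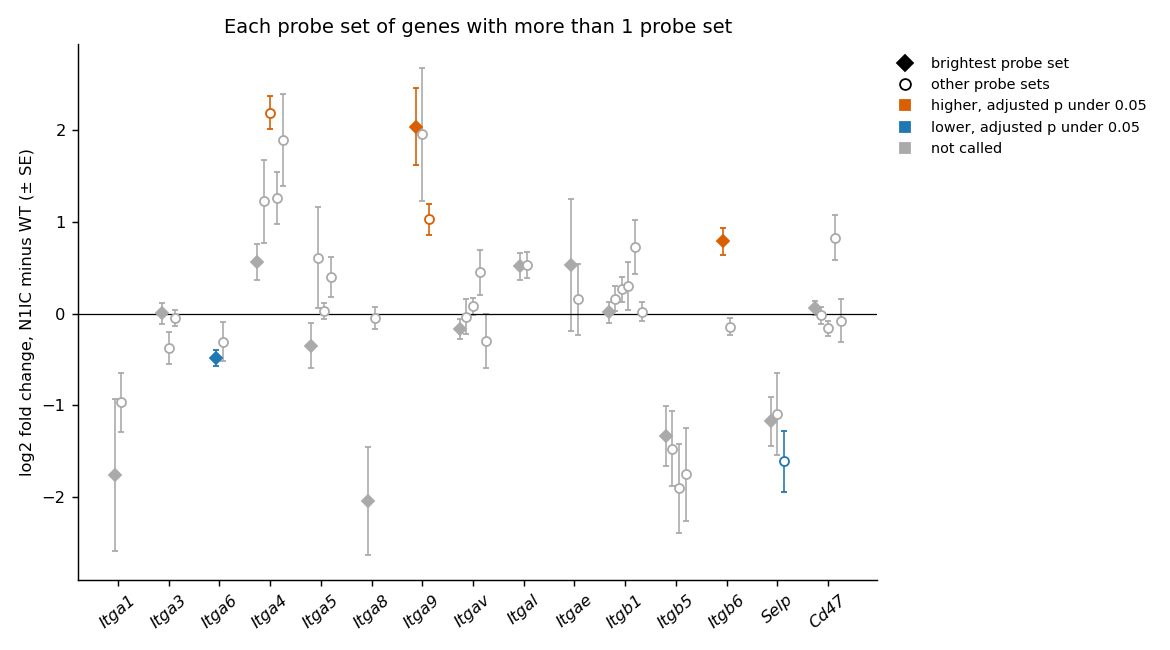
Log2 fold change, N1IC minus WT, with its standard error, for every probe set of the genes that have more than 1; diamonds are the brightest probe set and circles the others, and colour marks adjusted p under 0.05 over all probe sets. All 5 Itga4 and all 3 Itga9 probe sets lie above 0 and all 4 Itgb5 probe sets below, while the brightest and the dimmer probe set of Itgb6 and of Itga8 differ.

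The alpha chains that bind collagen or laminin held 1 gene that fell and 1 that rose among 6. Itga6, a laminin receptor chain used as a surface marker of stem and progenitor cells, stood at 11.96, 11.89 and 11.99 in WT and at 11.47, 11.56 and 11.37 in N1IC. The WT arrays lay close together and all above the N1IC arrays, a fall of 0.48 ± 0.08 on the log2 scale (SE, n = 3 per group) with an adjusted p of 0.0189 by limma. The dimmer Itga6 probe set stood at -0.30 and did not pass. The call was lost with the mean of both probe sets (adjusted p of 0.109 by limma), with sex as a covariate (0.184), and when WT replicate 3 or N1IC replicate 1 or 3 was left out (0.062 to 0.0667).

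Itga10, a collagen receptor chain best known from cartilage, rose 1.37-fold, from 4.30, 4.36 and 4.50 to 4.86, 4.84 and 4.84. All 6 values lie under the median of the probe sets, and of the genes that lie there on all arrays 2.28% were called. No detection call was used. The adjusted p was 0.0209 by limma. It stood between 0.0504 and 0.073 in the 5 fits that lost the call, those without WT replicate 1, WT replicate 2 or any 1 of the N1IC arrays, and at 0.142 with sex as a covariate.

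Itga1, a collagen receptor chain of natural killer cells, memory T cells and stroma, varied most among WT arrays, at 4.98, 8.20 and 7.02, against 4.54, 4.66 and 5.73 in N1IC. Its log2 fold change of -1.76 ± 0.83 (SE) did not pass, at an adjusted p of 0.247 by limma. Without WT replicate 1 it was -2.63 with an adjusted p of 0.0361. Itga1 did not pass without any 1 of the other arrays, at 0.273 to 0.459 by limma. Its neighbour Itga2, also a collagen receptor chain, and Itga3 and Itga7, laminin receptor chains, stood between 0.00 and 0.07, with overlapping groups.

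None of the 4 measured alpha chains of leukocyte integrins passed the limma test, and 1, Itgal, had an unadjusted p under 0.05. Itgal, the alpha chain of LFA-1, by which lymphocytes bind Icam proteins, stood at 10.49, 10.85 and 10.999 in WT and at 11.24, 11.29 and 11.36 in N1IC. The groups did not overlap, and the log2 fold change was 0.52 ± 0.14 (SE) with an adjusted p of 0.0729 by limma. Its other probe set gave 0.53, and the mean of both passed at an adjusted p of 0.0493.

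Itgb2, the beta chain that Itgal, Itgam and Itgax all need to reach the surface, went the other way, at 9.58, 10.54 and 10.81 in WT and at 9.15, 9.14 and 9.51 in N1IC. The groups did not overlap, but the log2 fold change of -1.05 ± 0.33 (SE) did not pass (adjusted p of 0.102 by limma). It passed without WT replicate 1, at -1.41 and an adjusted p of 0.00923, and did not without any 1 of the other arrays (0.164 to 0.233 by limma). Within an array, Itgal minus Itgb2 was 0.91, 0.31 and 0.18 in WT and 2.09, 2.15 and 1.85 in N1IC. Since neither gene overlapped and they differ in opposite directions, the groups separate in this difference by construction, and it is given as a description.

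Itgam, the alpha chain of Mac-1 on myeloid cells, stood at 5.14, 6.14 and 6.32 in WT and at 5.15, 4.81 and 5.42 in N1IC. These values are all under the median of the probe sets, and lineage cocktails commonly hold an antibody against its product, although the labels do not list the antibodies used. The log2 fold change was -0.74 ± 0.34 (SE), with an adjusted p of 0.232 by limma, and without WT replicate 1 it was -1.11 with 0.0295. Leaving out any 1 of the other arrays gave no call of Itgam, at 0.268 to 0.477 by limma. Itgax, the alpha chain of dendritic cells and macrophages, stood at 8.02, 9.43 and 9.42 in WT and at 9.13, 10.17 and 9.50 in N1IC, with overlap.

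Itgae, the alpha chain that binds E-cadherin and marks mucosal T cells and some dendritic cells, stood at 6.22, 8.67 and 8.84 in WT and at 8.35, 8.87 and 8.10 in N1IC. WT replicate 1 lay under all other arrays, which overlapped, and the log2 fold change was 0.53 ± 0.72 (SE). Its partner Itgb7 stood at 10.37, 11.39 and 11.25 in WT and at 11.39, 11.67 and 11.95 in N1IC, at 0.66 ± 0.30 (SE) and an adjusted p of 0.227 by limma. Cdh1, the gene of their ligand E-cadherin, rose from 6.58 ± 0.98 to 11.99 ± 0.07 (SD, n = 3). Madcam1, the mucosal ligand of the pair of Itga4 and Itgb7, stood between 4.17 and 4.46 on all 6 arrays.

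**Figure D3:**
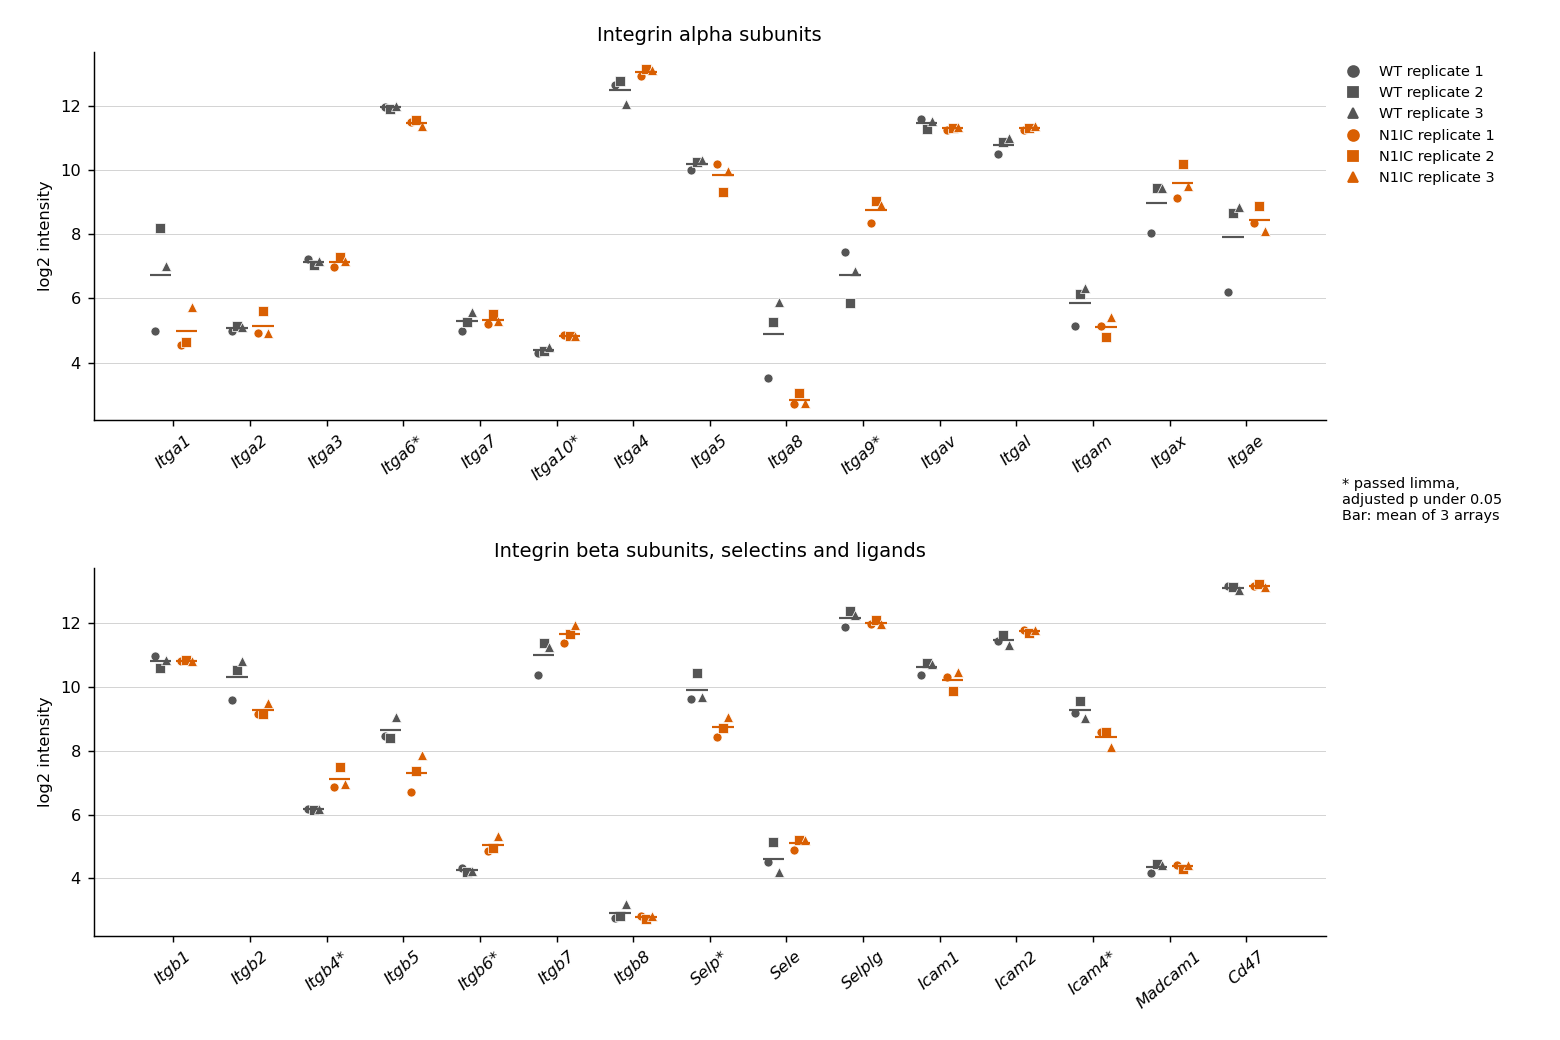
Log2 intensity of the 30 genes on each of the 6 arrays, with grey symbols for WT, orange symbols for N1IC, a symbol shape per replicate number and a bar at the mean of 3 arrays; asterisks mark genes past the limma threshold. Levels of different genes come from different probes and are not to be compared with each other; within a gene, Itga9 and Itgb4 lie apart by group, while in Itgae and Itgax WT replicate 1 lies below the other arrays.

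Among the 7 beta chains, Itgb1, the partner of most matrix-binding alpha chains, overlapped between the groups. It stood at 10.96, 10.59 and 10.86 in WT and at 10.80, 10.83 and 10.81 in N1IC, a log2 fold change of 0.01 ± 0.11 (SE). Its other 5 probe sets, of which none was called, stood as high as 0.73. The alpha chains that join it had log2 fold changes from 2.04 for Itga9, 0.46 for Itga10 and -0.48 for Itga6, all called, to -2.05 for Itga8 and -1.76 for Itga1, which were not.

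Itgb4, which joins only Itga6 and anchors epithelia to laminin, rose 1.92-fold, from 6.19, 6.14 and 6.18 to 6.86, 7.50 and 6.96. The WT arrays lay together, under the N1IC arrays and under the median of the probe sets. Itgb4 has 1 probe set. The adjusted p was 0.0237 by limma. It stood between 0.0536 and 0.0757 in the fits without WT replicate 1, 2 or 3 or N1IC replicate 3, and at 0.163 with sex as a covariate. Itgb4 and Itga6, the chains of 1 receptor, were thus called in opposite directions, at 0.94 ± 0.18 and -0.48 ± 0.08 (SE). Itgb6, an epithelial chain that joins Itgav and releases active TGF-beta, rose 1.73-fold, from 4.33, 4.21 and 4.25 to 4.85, 4.96 and 5.34. All of these values lie under the median of the probe sets. Its adjusted p was 0.0205 by limma, and 0.0522 to 0.0699 without WT replicate 2, WT replicate 3 or N1IC replicate 2. A dimmer Itgb6 probe set stood at -0.14, so the rise was seen on 1 of its 2 probe sets, and their mean did not pass (0.0701 by limma). With sex as a covariate the adjusted p of Itgb6 was 0.139 by limma.

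Itgb5, which joins Itgav to bind vitronectin, missed the threshold, at an adjusted p of 0.0519 by limma. It stood at 8.48, 8.42 and 9.04 in WT and at 6.70, 7.38 and 7.86 in N1IC, without overlap, a log2 fold change of -1.33 ± 0.32 (SE). Its 4 probe sets stood at -1.33, -1.47, -1.91 and -1.75, none of which passed on its own, with adjusted p between 0.0653 and 0.101 by limma. Those at -1.33 and -1.75 are named with the platform's suffix for probes that may match other sequences. Itgb5 passed without N1IC replicate 3, the highest N1IC array, and did not without any 1 of the other arrays (0.0859 to 0.142 by limma). Itgb8 stood at 2.93 ± 0.23 in WT and 2.80 ± 0.06 in N1IC (SD, n = 3), under the median of the probe sets.

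The selectin Selp was the member with the largest fall among those called. P-selectin is stored in platelet granules and in endothelial cells and is also found on primitive progenitors. Selp stood at 9.62, 10.44 and 9.69 in WT and at 8.44, 8.73 and 9.06 in N1IC. The groups did not overlap, with WT replicate 2 the highest, and Selp was 2.25-fold lower in N1IC (log2 fold change of -1.17 ± 0.27, SE, adjusted p of 0.0429 by limma). Its other probe sets stood at -1.10 and -1.61, the latter named with the platform's suffix for probes that may match other sequences. The one at -1.61 passed when p was adjusted over single probe sets, while the brightest then did not (0.0549 by limma). The call was lost without any 1 of the 6 arrays, WT or N1IC, with adjusted p between 0.0506 and 0.125 by limma, and kept with sex as a covariate (0.045). It was lost in female mice only (0.0625) and with the mean of its probe sets (0.0598 by limma). Over 10 megakaryocyte and platelet genes, 8 fell, and their mean level per array was 8.31 to 8.66 in WT and 5.89 to 6.56 in N1IC. Over 11 endothelial genes 5 fell, at 8.07 to 8.31 against 6.83 to 7.08. These were Robo4, Emcn, Egfl7, Tie1 and Tek, of which Tek is also counted among the stem cell genes. None of the others was called. Pecam1, Plvap, Kdr and Esam stood at 0.48, 0.46, 0.17 and 0.08, and Cldn5 and Cdh5 at -0.48 and -0.91. Over 11 stem cell genes 10 fell, at 9.85 to 10.34 against 8.01 to 8.17; the count was 6 without N1IC replicate 2. With the sex covariate 4 of them fell, and 6 in female mice only. That covariate also left 4 of the megakaryocyte and platelet genes called, and female mice alone 3 of them and 3 of the endothelial genes. The part of these cells in the fall of Selp was not tested. Sele, the selectin of activated endothelium, stood at 4.62 ± 0.48 in WT and 5.10 ± 0.18 in N1IC (SD, n = 3), with overlap.

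Selplg, the ligand of all selectins on leukocytes, stood at 11.88, 12.37 and 12.26 in WT and at 11.97, 12.09 and 11.98 in N1IC. The groups overlapped, and the log2 fold change was -0.16 ± 0.14 (SE). The enzymes that make it fit for binding were followed as a separate list of 24 measured genes for the synthesis and carriers of selectin ligands, of which 7 fell and 2 rose, with a median log2 fold change of -0.22. Tpst1, which adds sulfate to tyrosine, was 2.73-fold lower, at 8.09 ± 0.23 against 9.54 ± 0.12 (SD, n = 3), and Fut4, a fucosyltransferase, was 2.14-fold lower. Slc35c1, which carries fucose donors into the Golgi, was 1.33-fold lower, and Fut7, the other fucosyltransferase of this pathway, named after its value was seen, was 1.67-fold lower. Cd34, a sialomucin whose call was lost in some of the fits, was 1.54-fold lower. Chst2, a sulfotransferase, rose 3.59-fold and Ezr, a linker of such mucins to the cytoskeleton, 1.72-fold. Only called genes are named so far. Among those not called were Tpst2, at -0.30 ± 0.13 (SE), and Gcnt1, St3gal4, St3gal6 and C1galt1. With 1 array left out the list held 2 higher genes in every fit, while the lower genes numbered 2 without WT replicate 3, 3 without N1IC replicate 1 or 2, 4 without WT replicate 2 or N1IC replicate 3, and 5 without WT replicate 1. In the fit with sex, 1 was higher and 2 lower.

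Among the ligands, Icam4, a protein of erythroid cells that binds several integrins, was the only one of 5 called. Icam4 stood at 9.19, 9.56 and 9.04 in WT and at 8.60, 8.59 and 8.12 in N1IC, and every N1IC array lay below every WT array. It fell by 0.82 ± 0.19 on the log2 scale (SE), with an adjusted p of 0.045 by limma. The call was lost without any 1 of the 6 arrays, WT or N1IC, at 0.0693 to 0.102, with sex as a covariate (0.0893) and after a repeated quantile normalization. Of 8 erythroid genes limma called none, with 1 at an unadjusted p under 0.05, and their mean level per array was 8.35 to 9.26 in WT and 8.86 to 9.52 in N1IC. The adjoining Icam1, the inducible ligand of LFA-1 and Mac-1, stood at 10.38, 10.75 and 10.73 in WT and at 10.32, 9.88 and 10.47 in N1IC, with overlap. Icam2, its constitutive counterpart, stood at 11.45, 11.62 and 11.32 in WT and at 11.79, 11.69 and 11.78 in N1IC, without overlap, at 0.29 ± 0.10 (SE) and an adjusted p of 0.122 by limma. Cd47, which restrains engulfment by macrophages, lay between 13.04 and 13.21 on all 6 arrays, with a log2 fold change of 0.06 ± 0.07 (SE). A dimmer Cd47 probe set stood at 0.83 and did not pass.

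Of 25 further ligands of integrins and of Cd47, 6 fell and 1 rose, with a median of 0.01, and 13 lay under the median of the probe sets on all arrays. Sirpa, the receptor of Cd47 on myeloid cells, was 1.92-fold lower, at 11.10 ± 0.19 against 12.04 ± 0.11 (SD, n = 3). F11r, a junctional ligand of LFA-1, was 5.06-fold lower, Adam15, a membrane protease with a disintegrin domain, 3.56-fold, Mfge8, a bridge to Itgav integrins, 1.66-fold, and Emilin1, a matrix ligand of Itga9 and Itga4, 1.63-fold. The gene that rose was Cdh1, above. With 1 array left out, 3 to 4 of these ligands fell: 3 without WT replicate 3 or N1IC replicate 1, and 4 without each of the others. With sex as a covariate 1 fell.

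Inside the cell, integrins are switched on by talin and linked to actin by adaptors. Of 35 measured genes of this kind, 6 fell and 3 rose, with a median of -0.09. Zyx, an adaptor of focal adhesions, was 1.91-fold lower, and the tetraspanins Cd151 and Cd81, which sit beside integrins in the membrane, were 1.82-fold and 1.40-fold lower. The adaptor Skap2 of myeloid cells was 2.10-fold lower, at 10.73 ± 0.20 against 11.80 ± 0.05 (SD, n = 3). Its T cell counterpart Skap1 rose 6.54-fold, from 6.75 ± 1.08 to 9.46 ± 0.41, and Fyb, the adaptor that binds both Skap proteins, rose 1.76-fold. With sex as a covariate limma called none of the 35, with 9 at an unadjusted p under 0.05. Without 1 array, 1 to 2 were higher and 2 to 6 lower: 2 lower without any 1 of the N1IC arrays, 3 without WT replicate 2 or 3, and 6 without WT replicate 1.

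On part of the genes, WT replicate 1 was set off from both other WT arrays. It lay at least 0.5 below them in 7 of the 30, namely Itga1, Itga8, Itgam, Itgax, Itgae, Itgb2 and Itgb7. This is 23.3%, against 5.20% of all genes, and for each other array the count was 0 to 2. The difference from the mean of WT replicates 2 and 3 was -2.63 for Itga1, -2.54 for Itgae, -2.06 for Itga8, -1.40 for Itgax, -1.10 for Itgb2, -1.09 for Itgam and -0.95 for Itgb7. Itga9 was the only one of the 30 that lay at least 0.5 above both on this array. Most of the 7 genes are known from myeloid, dendritic, natural killer or T cells, and the levels of several marker lists also differed on this array. The mean level per array of 14 neutrophil and monocyte genes was 10.38 on WT replicate 1 and 12.09 and 11.91 on WT replicates 2 and 3, and 9.39 to 10.43 in N1IC, where 5 fell. This count was 11 without WT replicate 1, 3 without WT replicate 2 or N1IC replicate 1, 2 without WT replicate 3 or N1IC replicate 2, and 1 with sex as a covariate. For 11 dendritic cell genes, of which 4 fell, it was 9.08, 10.49 and 10.42 in WT and 8.26 to 8.62 in N1IC. Without WT replicate 1, 9 of them fell, and with sex as a covariate 1. For 8 natural killer and innate lymphoid genes, of which 1 rose, it was 7.55, 9.78 and 9.48 in WT and 8.59 to 9.28 in N1IC. Without WT replicate 1, 2 of these rose and 3 fell, and without any 1 of the other arrays limma called none, with 3 at an unadjusted p under 0.05 each time. The list mean joins opposite differences. Nkg7, the called gene, stood at 0.37, and Gzma and Il7r, not called, at 3.96 and 1.34. Klrk1, Klrd1, Eomes and Ncr1, not called, stood at -1.79, -1.74, -1.74 and -1.31, and Prf1 at -0.01. For 12 mast cell and basophil genes, of which 2 rose and 1 fell, the mean level per array was 6.79, 7.88 and 8.74 in WT and 9.0 to 9.92 in N1IC. Without WT replicate 1, 2 of these fell, and without WT replicate 3, 4 rose. Mcpt1 and Cpa3 were the genes that rose on all arrays, and Gata2 the gene that fell. Of the uncalled genes, Mcpt2, Mcpt4, Cma1, Tpsb2, Fcer1a and Tpsab1 had positive log2 fold changes, and Hdc, Ms4a2 and Mcpt8 negative ones. The mean level of macrophage genes, also of the myeloid lineage, was 6.14 on WT replicate 1 against 6.20 and 6.06, with 6.33 to 7.10 in N1IC. Its members went both ways. On WT replicate 1, Cd68, Adgre1, Marco, Vsig4 and Mrc1 lay below both other WT arrays, and C1qa, C1qc, Hmox1, Cd5l and Axl above both. Erythroid genes were lower there, at 8.35 against 9.26 and 8.89.

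The T lineage genes, of which 9 of 10 rose, stood at 6.95, 8.49 and 8.08 in WT and 10.61 to 10.99 in N1IC. The count was 4 without N1IC replicate 1 and 5 without N1IC replicate 2, and the fit with sex gave 4. Of 8 B lineage genes 6 fell, of 11 macrophage genes 2 rose, and of 9 stroma genes 1 rose. The macrophage count by limma was 0 without WT replicate 2 or 3 (4 and 3 at an unadjusted p under 0.05), and 1 without WT replicate 1 or N1IC replicate 1 or 3. Among stroma genes 1 also fell without WT replicate 1 or N1IC replicate 3. The part of such cells in the values of the integrin genes was not tested. Without WT replicate 1, 7 of the 30 genes were called, 3 of them shared with the 7 called on all arrays: Itga6, Itga9 and Itgb6 kept their calls, Itga1, Itga8, Itgam and Itgb2 were added as lower, and Itga10, Itgb4, Selp and Icam4 lost theirs. The other genes of the 7 were not called without this array either, at log2 fold changes of 0.18 for Itgax, -0.32 for Itgae and 0.35 for Itgb7, and Itgae then stood lower in N1IC instead of higher.

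**Figure D4:**
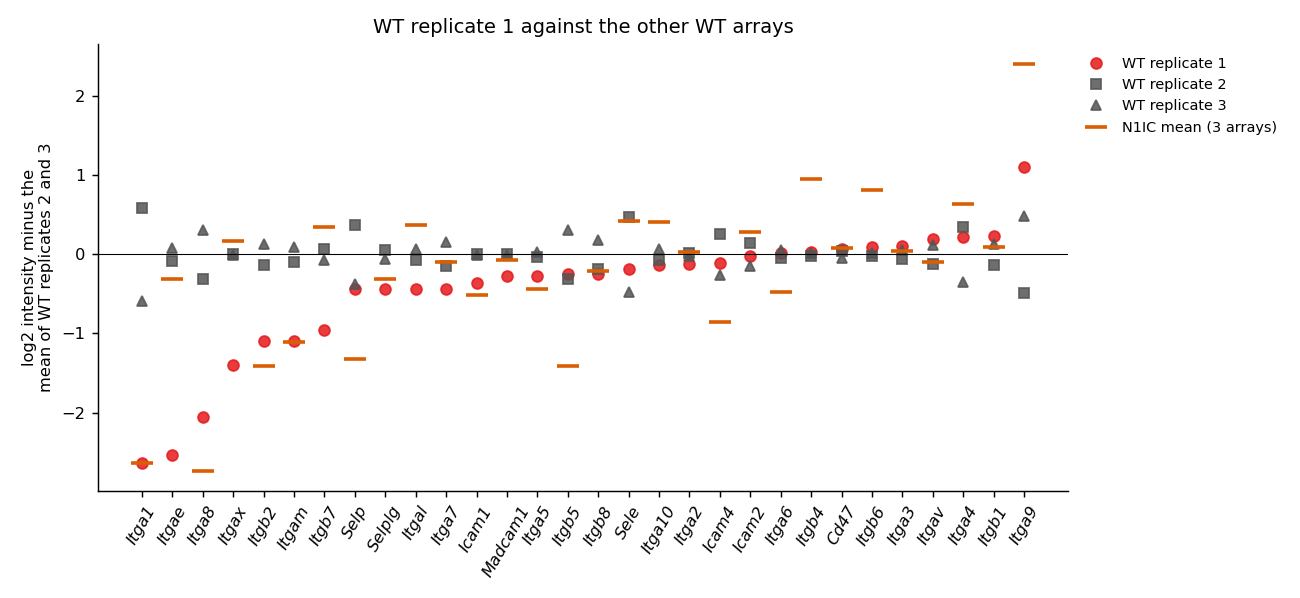
Log2 intensity of each WT array and the N1IC mean, minus the mean of WT replicates 2 and 3, for the 30 genes ordered by the value of WT replicate 1 (red). Red points lie far below 0 for Itga1, Itgae, Itga8, Itgax, Itgb2, Itgam and Itgb7, and for Itga1, Itgb2 and Itgam the N1IC mean lies near that array.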

How the data were processed

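Affymetrix arrays, 1 per mouse, measured RNA of LSK cells from 3 WT and 3 N1IC animals. The labels' protocols give an input of 5 ng of total RNA and Nugen Ovation amplification. The deposited intensity values were made by the authors with RMA, per the submitters' processing notes, in a version not given in the sources used here. Their range is that of a linear scale, so log2 was taken. Amplifying little RNA can make dim genes vary more, and RMA compresses their fold changes. No detection call or batch label was used.

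Probe sets with 1 symbol (34945 of 45101) were named by gene ID through RefSeq GRCm38.p6, which matched 34741. Each of 18193 genes was read on its brightest probe set, with no filter on low values. The groups were tested in R 4.3.3 with limma 3.58.1 (lmFit and eBayes, two-sided, 4 residual degrees of freedom, no covariate), and p-values were adjusted over all genes by the Benjamini-Hochberg method. On simulated data with the N1IC and WT layout and 18193 genes, the test recovered 73% of changes of 1 and 96% of changes of 2 on the log2 scale, with 5 false calls. There the genes varied independently, few of them were changed and no array was set off on many genes. The shares are therefore not the power of the comparison made here. Pearson's correlation over all probe sets was 0.985 to 0.989 between WT arrays and 0.968 to 0.975 across groups.

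The members and all gene lists were chosen with earlier results of these data known. By rule, values per array are given for the called members, the partners of called members and the extremes of each role; other members were described in full after their values were seen. Of the lists, up to 6 called genes were named by smallest p. Protein sequences were not used here. The alternatives were sex as a covariate, a block on the replicate number, female mice only, other normalizations, filters, probe set summaries, priors, array weights and thresholds, a pseudocount, and leaving out each array. The labels name a mouse for each sample but do not say which were littermates. All N1IC mice are female, so fits with sex set N1IC against WT replicate 2.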

Additional observations from a re-analysis of the deposited data

How the results depend on the processing

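Of 7 called genes, none changed direction under the alternatives in which it was tested, which leave out the brighter 60% of genes for Itga10 and Itgb6. The arrays of the groups did not overlap in any of the 7, so most alternatives, such as leaving out an array, could not reverse the sign. The kept direction is therefore no sign of stability. The counts of 4 higher and 3 lower genes became 0 and 2 with the replicate block (8 and 6 at an unadjusted p under 0.05 by limma), 1 and 1 with female mice only (Itga9, and the newly called Itga8) as well as with the sex covariate (Itga9 and Selp), 2 and 4 with the brighter 60% of genes, and 0 and 0 at an adjusted p under 0.01. With the mean of all probe sets 5 were higher and 1 lower, and with each probe set on its own 4 and 1. Leaving out 1 array gave 1 to 2 higher and 0 to 5 lower. Over all genes, 632 higher and 1512 lower became 357 and 936 with the replicate block, 116 and 333 with the sex covariate, 142 and 504 in female mice, 209 and 536 at 0.01, and 332 to 509 and 835 to 1420 with 1 array left out. Under the other alternatives the counts stayed within 1.5 times. The labels do not say whether the numbers in the titles pair the mice, and those of WT replicates 1 and 2 carry a b. Deviations from the group means correlated at -0.09, -0.07 and 0.07 for equal numbers and from -0.14 to 0.16 for other numbers. With 3 arrays per group this cannot settle whether the mice were paired, so the block is given beside the main fit. With the block Icam4 kept its call and Itgb5 gained one, at an adjusted p of 0.0355 by limma. The number of arrays limits the precision.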
